A study of Mus musculus with 3 samples.

Results

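Nqo1 encodes NAD(P)H quinone dehydrogenase 1, an enzyme that reduces quinones in a single step carrying a pair of electrons and so bypasses the reactive semiquinone. Its locus on mouse chromosome 8 was examined in the Nrf2 ChIP-seq peak lists of C2C12 myotubes. All peaks that overlapped chromosome 8, 109860000 to 109980000 (mm9), a window of 120 kb, were taken. The gene lies on the minus strand, so higher positions are upstream, and its start was taken as 109.927 Mb, a position known to the nearest kb only. The window held 2 of the 6485 peaks in both lists, 1 of 2892 in replicate 1 and 1 of 3593 in replicate 2.

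C2C12 is a mouse myoblast line, here of wild-type genotype, whose cells fuse into myotubes after serum is reduced. Cells that had differentiated for 72 h received CDDO-Im, a synthetic triterpenoid that activates Nrf2, at 100 nmol/L for 3 h. Chromatin was then immunoprecipitated with an anti-Nrf2 antibody in 2 replicates, and the labels also name 1 input, whose reads were not analysed here. No untreated sample is among them, so an effect of CDDO-Im on Nrf2 at Nqo1 cannot be read from these lists. The labels do not say whether the replicates were separate cultures, and the depth behind each list is unknown.

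In unstressed cells the adaptor Keap1 holds Nrf2 for ubiquitination and degradation. Electrophiles such as CDDO-Im modify Keap1 cysteines, Nrf2 accumulates, and with a small Maf partner it binds antioxidant response elements near its target genes. Nqo1 is among the most widely used readouts of this pathway, and an antioxidant response element upstream of its start is among the best studied. These statements are background and were not measured here.

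RefSeq's promoter table (assembly GRCm38.p6, a later build than mm9) held 1 entry for Nqo1. The 250 bases before the start are shown. With the start as given, the near edges of the listed peaks lay 190 and 54 bp upstream in replicates 1 and 2, inside this stretch. With a start 500 bp lower, they would lie 690 and 554 bp upstream, outside it. With a start 500 bp higher, they would lie at -310 and -446 bp (downstream). The far edges would then be 298 and 430 bp upstream, so both peaks would cover the whole stretch. The sequence is at chr8:107403206-107403455 of GRCm38.p6, minus strand, and reads 5′ to 3′. Capitals mark TATAAA and CCGCCC (or GGGCGG, the same letters on the other strand).
Nqo1: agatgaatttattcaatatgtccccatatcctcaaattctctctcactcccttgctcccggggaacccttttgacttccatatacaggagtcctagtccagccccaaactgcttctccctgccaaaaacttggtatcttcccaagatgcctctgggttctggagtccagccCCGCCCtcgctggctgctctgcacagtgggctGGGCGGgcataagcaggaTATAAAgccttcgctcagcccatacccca

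Counted from the start, with -1 as the base before it, CCGCCC spanned -79 to -74, GGGCGG spanned -47 to -42 and TATAAA spanned -29 to -24. TATAAA is the core of the TATA box, which places the start of transcription, and CCGCCC is the core of a GC box bound by Sp1-type factors. TATAAA, searched on the gene's strand, was present in 7.59% of the 32851 promoters of the table, and CCGCCC, on either strand, in 32.7%. Both were present in 0.959%. These letters were chosen after the sequence had been seen. The GC content of the 250 bases was 53.2%, beside a median of 52.4% over all promoters.

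The core of the antioxidant response element, TGACNNNGC, was searched on both strands of the 300 bases from 250 before to 50 after the start. These letters are not in the Nqo1 window. With the start as given, the peak centres lay 494 and 492 bp upstream in replicates 1 and 2, beyond this window. With a start 500 bp higher, they would lie at -6 and -8 bp (downstream), inside it. Sequence farther upstream was not searched, so whether the letters lie under the peaks cannot be told. The letters were found in 12.4% of all promoters of the table, or in at least 1 promoter of 14.0% of its genes. In a list of 20 other Nrf2 target genes, 16 had an entry, and 7 of the 16 held the letters. Among them were Gclm (a subunit of the enzyme that makes glutathione's precursor), Txnrd1 (thioredoxin reductase) and Srxn1 (sulfiredoxin). Slc7a11, Taldo1, Tkt, Fth1, Ftl1, Blvrb, Osgin1, Cbr1 and Ephx1 were searched and, like Nqo1, did not hold them. Hmox1, Gclc, Gsr and Abcc1 had no entry in the table and were not searched. Finding the letters is a description of the sequence and not a bound site. How much of the printed stretch lies under the listed peaks cannot be told from a start known to the nearest kb.

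The data placed 1 Nrf2 peak at Nqo1 in each replicate, at nearly the same centre. In replicate 1 the peak ran from 109927190 to 109927798 (mm9), a width of 609 bp, with a score of 102.81. In replicate 2 it ran from 109927054 to 109927930, a width of 877 bp, with a score of 422.52. The score is the authors' own value per peak. It was taken to be the peak caller's p-value on a scale of -10 log10, and the lowest in the lists is 50. It depends on depth, so it ranks peaks within a list and does not compare binding between replicates.

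The peak of replicate 1 lay wholly inside that of replicate 2, which reached 136 bp farther at the lower end and 132 bp farther at the upper end. The overlap was therefore 100% of the replicate 1 peak and 69.4% of the replicate 2 peak. The centres were 2 bp apart. Among the 1613 shared regions of both lists that held 1 peak of each replicate, the median distance between centres was 43 bp, and 2.36% had centres closer than those at Nqo1. In 63.7% of these regions the replicate 1 peak also lay inside the replicate 2 peak.

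Measured from the start as given, the centre was 494 bp upstream in replicate 1 and 492 bp upstream in replicate 2. The edges were 190 and 798 bp upstream in replicate 1 and 54 and 930 bp upstream in replicate 2. Neither peak covered the position given as the start. That position is rounded, however: a start 500 bp lower would put the centres at 994 and 992 bp upstream, and a start 500 bp higher would put them 6 and 8 bp downstream, with both peaks across the start. Over this range the centres lie from the start to about 1 kb upstream of it, and the far edges lie at most 1298 bp upstream in replicate 1 and 1430 bp in replicate 2. Gene models of the mm9 build were not used here, so exons and introns under the peak are not assigned.

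**Figure D1:**
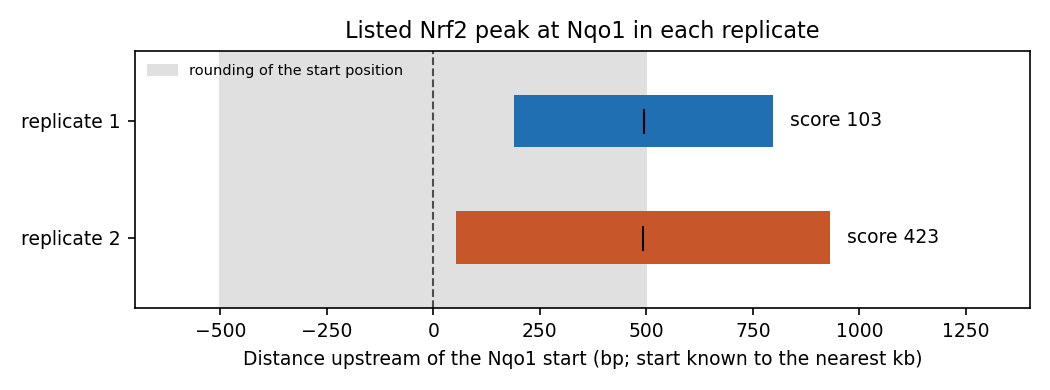
Bars span the listed Nrf2 peak of each replicate by distance upstream of the Nqo1 start in bp, with ticks at the centres and the score beside each bar; the dashed line is the start as given and grey marks its rounding of 500 bp to each side. The centres are at 494 bp in replicate 1 and 492 bp in replicate 2, and the wider replicate 2 peak encloses that of replicate 1.

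The position was nearly the same in both lists, but the place of the peak in the ranking was not. In replicate 1 it ranked 931 of 2892 by score, above 67.8% of the list, whose median score was 80.0. In replicate 2 it ranked 222 of 3593, above 93.8% of the list, whose median was 88.7. No other peak of either list had exactly the same score as the Nqo1 peak. In replicate 1 the Nqo1 score was just past 100, a level reached by 33.7% of that list. In replicate 2 it was past 200, a level reached by 18.4% of that list.

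Against chromosome 8 alone, the replicate 1 peak ranked 40 of 81 and the replicate 2 peak ranked 14 of 137. On chromosomes 2 to 19, which leave out the crowded chromosomes 1 and X, the ranks were 429 of 1312 and 183 of 2238. Among isolated peaks, those with fewer than 2 other peaks of their list within 100 kb, they were 360 of 1255 and 157 of 2152. By width, the Nqo1 peak ranked 771 in replicate 1 and 589 in replicate 2, wider than 73.3% and 83.6% of the lists. Their median widths were 456 and 612 bp. Among peaks with a score within 10% of its own, it was wider than 70.7% of 351 in replicate 1 and 66.1% of 62 in replicate 2.

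**Figure D2:**
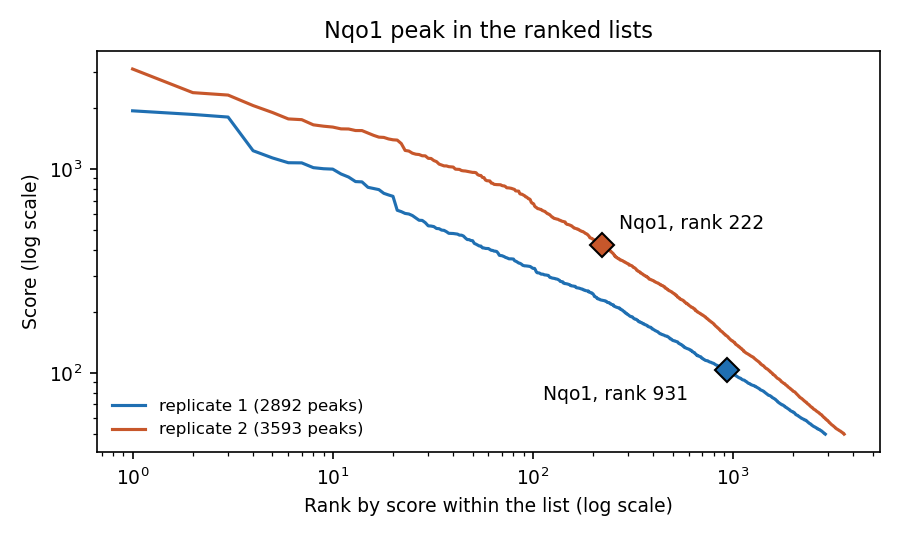
Each line plots the score of every peak against its rank in 1 list, both on log scales, and diamonds mark the Nqo1 peak. Nqo1 stands at rank 222 in replicate 2 and at rank 931 in replicate 1, where the scores are lower.

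That the Nqo1 peaks had partners in the other list can be read against all peaks. An overlap of at least 1 bp was found for 66.1% of all replicate 1 peaks and 50% of all replicate 2 peaks. On chromosome 8 the shares were 77.8% and 42.3%. The Nqo1 peaks also overlapped by at least 50% of both, as did 52.2% of replicate 1 peaks and 42% of replicate 2 peaks. Their centres lay within 200 bp, as did those of 52.5% and 42.2%. Among 691 replicate 1 peaks scoring 100 to 200, the class of its Nqo1 peak, 87% had an overlap of at least 1 bp. Among 240 replicate 2 peaks scoring at least 400, 100% had such an overlap. A shared peak at these scores was therefore the usual case, and the overlap at Nqo1 does not stand apart from peaks of like score.

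Peaks next in rank gave a closer comparison. Of the 100 peaks nearest to Nqo1 in the replicate 1 ranking, 50 on each side, with scores from 99.8 to 105.39, 74 had a partner in replicate 2. The partners' scores ran from 50.02 to 797.78 with a median of 133, and 5 of the 74 exceeded the 422.52 at Nqo1. Chromosomes 1 and X held 60 of these 100 peaks. With chromosomes 2 to 19 alone, 85 of 100 had a partner, the median was 229.9, and 8 exceeded it. Within replicate 2, the Nqo1 peak thus scored higher than most peaks whose partners scored like it in replicate 1.

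The reverse held from the side of replicate 2. All 100 of the peaks nearest to Nqo1 in its ranking, with scores from 360 to 499, had a partner in replicate 1. Those partners scored from 59.5 to 525, with a median of 149, and 86 of them exceeded the 102.81 at Nqo1. On chromosomes 2 to 19 alone, 79 of 100 did.

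The 1750 shared regions form a single set that can be ranked by the scores of either list. In that set Nqo1 ranked 804 by the score of replicate 1 and 221 by that of replicate 2, which was 583 places better in replicate 2. A smaller gain or a loss was found for 86.6% of all shared regions, 78.6% of the 903 on chromosomes 2 to 19 and 84.5% of the 58 on chromosome 8. The median gain over all shared regions was 3 places. On chromosomes 2 to 19 it was 153 places, still by rank in the whole set, so a better rank in replicate 2 was common there. Ranked among those 903 regions alone, Nqo1 stood at 396 by the score of replicate 1 and at 182 by that of replicate 2. Among the 993 isolated shared regions, the class that holds Nqo1, 79.9% had a smaller gain or a loss and the median gain was 110 places. On chromosome 8 the median was a gain of 241 places for the 27 isolated regions and -268 places for the 31 dense ones, those with at least 2 other shared regions within 100 kb. Whether depth moved these ranks was not tested. Ordered by the worse of its ranks in the lists, Nqo1 came at 497 of 1750. Scores above those at Nqo1 in both replicates were found in 211 shared regions, and scores below them in both were found in 937.

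**Figure D3:**
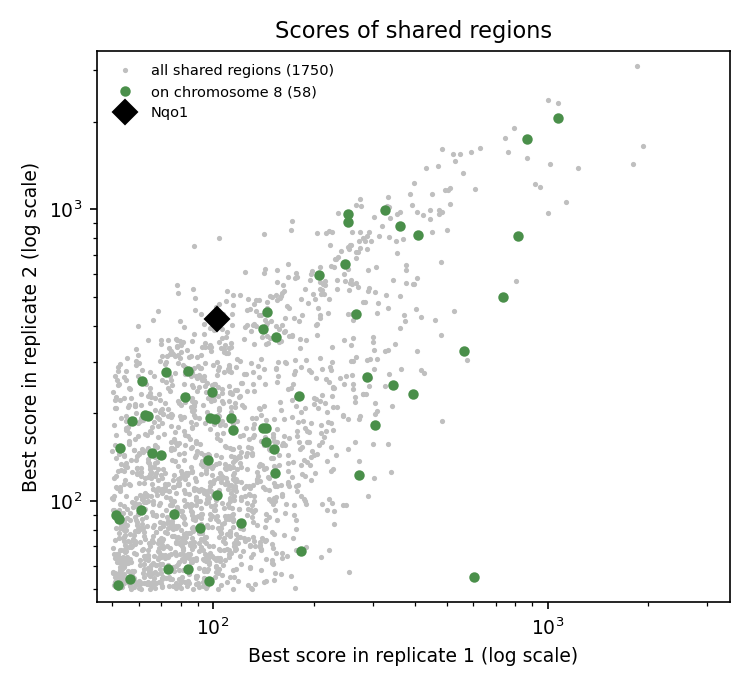
Each point is a shared region, plotted by its best score in replicate 1 and in replicate 2, both on log scales, with the 58 regions of chromosome 8 in green and Nqo1 as a diamond. Nqo1 lies at 102.81 and 422.52, near the upper side of the points at its replicate 1 score.

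On chromosome 8, 13 of the 57 other shared regions scored above Nqo1 in both replicates, 20 in replicate 1 only, 0 in replicate 2 only and 24 in neither. Of the 20 that were higher in replicate 1 only, 16 were dense. Of the 13 that were higher in both, 5 were dense and 8 were isolated. By the worse of both ranks Nqo1 was 27 of 58 on the chromosome, and 15 of the 26 regions before it were dense. Among the 27 isolated shared regions of chromosome 8 it was 12. The highest on the chromosome was the region at 77613208 to 77614066, which scored 1073 in replicate 1 and 2051 in replicate 2.

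No other peak of the same list lay within 100 kb of it in either replicate, which was so for 30.8% of replicate 1 peaks and 41.9% of replicate 2 peaks. The nearest other peak, measured between centres, was 263.7 kb away in both lists, on the downstream side. The median distance from a peak to its nearest neighbour was 12.3 kb in replicate 1 and 50.9 kb in replicate 2. On chromosome 8 alone these medians were 4.54 and 122.4 kb, and 77.8% and 57.7% of its peaks had a nearer neighbour than Nqo1 had. Toward higher positions, upstream of the gene, the gap to the next peak was 3428 kb in replicate 1 and 382 kb in replicate 2.

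Within 500 kb of the start, replicate 1 listed 2 peaks and replicate 2 listed 5. The peak other than Nqo1 that both lists held was the shared region at 109663394 to 109664184. It scored 206.96 in replicate 1 (rank 272) and 594.29 in replicate 2 (rank 122), above Nqo1 in both. The remaining 3 peaks, in replicate 2 only, scored 50.81, 50.54 and 62.79, close to the lowest score listed, and their centres were 430 kb downstream and 383 and 390 kb upstream of the start. The next shared region toward higher positions, 3429 kb from the start at 113355727 to 113356312, scored 61.5 and 259. In RefSeq's gene table (GRCm38.p6), whose positions were not used, the protein-coding genes beside Nqo1 are Nfat5, a transcription factor of the osmotic stress response, toward lower positions and Nob1, a ribosome assembly factor, toward higher positions. Which genes lie at the neighbouring peaks was not assigned.

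**Figure D4:**
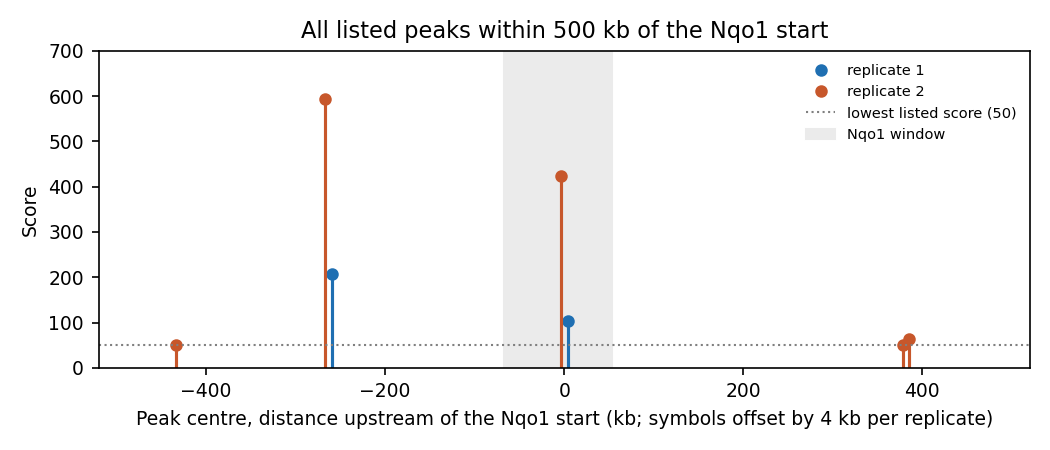
Each stem is a listed peak within 500 kb of the Nqo1 start, plotted by the distance of its centre upstream of the start in kb and by its score, with symbols shifted by 4 kb per replicate, the 120 kb window in grey and the lowest listed score of 50 dotted. Both replicates have a peak at Nqo1 and a higher one 263 kb downstream, and the 3 other peaks are of replicate 2 and score between 50.54 and 62.79.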

How the data were processed

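The submitters' processing notes name bcl2fastq 2.15.0, Bowtie2 and MACS 1.4 and the mm9 build. Settings, and the use of the input as a control, are not stated in those notes. The authors deposited 1 peak list per ChIP replicate with a score per peak, taken as -10 log10 of the p-value from the caller, so the lowest score of 50 would be a threshold of 1e-05. Depth is unknown. Starts were counted from 1. An overlap of 1 bp or more made peaks shared, and shared regions are the merged overlapping peaks. Distances are from the start given to the nearest kb, positive upstream. With 1 group of 2 replicates and 1 locus, values are descriptions and no test was run. The overlap step was checked on shifted copies of listed replicate 1 peaks. The locus, the Nrf2 target list and the comparisons were chosen with earlier results of these data known. The genes named are Nqo1, the target list and the neighbours of Nqo1, and the regions named are the next shared ones on chromosome 8, plus its highest one and the peaks within 500 kb, chosen after their values were seen. Python 3.11.15, NumPy 2.4.6, pandas 2.3.3 and matplotlib 3.10.9 were used.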

Additional observations from a re-analysis of the deposited data

How the results depend on the processing

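Of 35 alternative values, 23 stayed the same or within 1.5 times the value given, 10 moved further and 2 changed sign. Overlap of at least 50% of both peaks, centres within 200 bp, and scores of at least 100 each kept the 1 shared region at Nqo1. With scores of at least 200 replicate 1 listed 0 peaks there, replicate 2 still listed 1, and 0 were shared. A window of 500 kb on each side of the start held 2 peaks in replicate 1 and 5 in replicate 2. Leaving out either replicate left 1 list, with its peak (1 to 1), and no overlap value. The distance to the start was 190 and 54 bp from the nearest edge, 994 and 992 bp with the start 500 bp lower, and -6 and -8 bp (downstream) with the start 500 bp higher, for replicates 1 and 2. The 10 alternative percentiles (by score in other sets of peaks, or by width) ran from 50.6 to 73.3 in replicate 1 and from 83.6 to 93.8 in replicate 2, the given values included. All 10 were within 1.5 times the value given, a wide limit for values that cannot exceed 100. It counts as the same the replicate 1 percentile of 50.6 on chromosome 8, beside 67.8 in the whole list. The restricted comparisons of peaks next in rank and of gains in rank among shared regions were chosen after seeing the data. No paired analysis was possible because the input, the only other group, had no peak list in use here. The unknown depth limits any reading of the difference in rank between the replicates.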
